A study of Mus musculus with 4 samples.

Results

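The aryl hydrocarbon receptor pathway was examined in the middle ears of mice that had inhaled diesel exhaust particles (DEPs). The gene set was drawn up by name, with earlier results of these data known, and it holds the receptor Ahr, its partner Arnt, its repressor Ahrr and 5 direct targets, Cyp1a1, Cyp1a2, Cyp1b1, Tiparp and Aldh3a1. These 8 genes were represented by 13 probes, of 20971 genes named by symbol and 39429 probes on the array. Male BALB/c mice, 9 in all and 6 to 10 weeks old, were used in the study, and the exposed mice inhaled DEPs for 1 h a day on days 1 to 5. Tissue was dissected from the region of the temporal bone around the middle ear on day 14. Total RNA was compared on 4 two-colour arrays, with RNA labelled as that of a DEP-treated ear in Cy5 (red) and RNA labelled as that of an untreated control ear in Cy3 (green), so each group holds 4 extracts. Neither the number of mice behind an extract nor a sham inhalation of the control mice is given in the sources used here, and p-values measure the spread between extracts alone.

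The receptor waits in the cytosol in a complex with the chaperone Hsp90 and its co-chaperone p23. When it binds a flat aromatic ligand, such as the polycyclic aromatic hydrocarbons carried by diesel exhaust, it enters the nucleus, pairs with Arnt and binds the xenobiotic response element, whose core reads GCGTG. Cytochrome P450 enzymes of family 1 are its best known targets and oxidise many of its ligands, while Ahrr and Tiparp are induced by the receptor and dampen it. In barrier tissues such as skin and airway, Cyp1a1 is low at rest and serves as the usual sign of recent receptor activity.

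Promoter sequences were available from RefSeq, build GRCm38.p6, for 6 of the 8 genes, which were Arnt, Ahrr, Cyp1a1, Cyp1a2, Cyp1b1 and Tiparp. Those of 3 induced targets and of the repressor are printed here because their response is what the arrays were read for. Each shows the 250 bases before the annotated start, from 5′ to 3′ on the strand of the gene, and capitals mark GCGTG or its reverse complement CACGC.
Cyp1a1, chr9:57697363-57697612, plus strand: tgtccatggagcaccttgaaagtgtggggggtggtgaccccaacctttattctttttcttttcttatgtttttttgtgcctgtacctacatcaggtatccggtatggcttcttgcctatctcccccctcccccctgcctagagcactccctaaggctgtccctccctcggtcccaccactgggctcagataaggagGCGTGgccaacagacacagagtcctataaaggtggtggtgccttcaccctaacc
Cyp1b1, chr17:79715062-79715311, minus strand: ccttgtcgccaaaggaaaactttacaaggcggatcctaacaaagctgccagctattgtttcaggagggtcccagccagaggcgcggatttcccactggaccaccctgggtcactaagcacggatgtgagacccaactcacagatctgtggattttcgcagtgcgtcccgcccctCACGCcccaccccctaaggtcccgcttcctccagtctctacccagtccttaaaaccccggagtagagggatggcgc
Tiparp, chr3:65528197-65528446, plus strand: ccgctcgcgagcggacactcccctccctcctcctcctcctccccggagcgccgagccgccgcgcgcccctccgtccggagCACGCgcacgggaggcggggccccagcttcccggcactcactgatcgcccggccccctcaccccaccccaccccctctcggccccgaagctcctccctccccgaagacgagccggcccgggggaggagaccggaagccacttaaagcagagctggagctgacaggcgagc
Ahrr, chr13:74292332-74292581, minus strand: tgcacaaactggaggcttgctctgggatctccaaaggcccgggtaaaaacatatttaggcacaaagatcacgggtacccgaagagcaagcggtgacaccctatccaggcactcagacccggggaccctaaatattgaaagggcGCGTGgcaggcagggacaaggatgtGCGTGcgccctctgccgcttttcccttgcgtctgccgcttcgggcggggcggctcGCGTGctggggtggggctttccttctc

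Cyp1a1 held 1 such core at position -54 from the start, Cyp1b1 held 1 at -76 and Tiparp held 1 at -170, the last 2 on the opposite strand. Ahrr held 3, at -107, -82 and -27. The promoter of Arnt, which is not a target of the receptor, held 1 at -29. The promoter of Cyp1a2, a liver enzyme whose gene lies next to Cyp1a1 on chromosome 9, held 0 of them in this window. The core was thus present in 5 of 6 promoters of the set, searched over both strands in windows of 300 bases that reach 50 bases past the start, and in 32.39% of the 32851 promoters in the table. Only 3.915% of all promoters held 3 or more, as that of Ahrr did. GCGTG is also 1 of the 2 forms of the core bound by Arnt with the hypoxia factor Hif1a, so these letters are not particular to the receptor. A match is a description of the sequence and not a site of binding, and elements farther from the start were not searched.

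Across the 4 arrays, between 65.5% and 69.0% of probes were well above background in Cy5 and between 59.3% and 68.1% in Cy3, and repeated spots of a probe differed on the median by an SD of 0.04 (log2 ratio). All arrays lay on 1 slide and were scanned once, and the dyes were not swapped, so dye and exposure cannot be told apart. The treatment labels list both groups under Cy5, and the source names were followed. Marker genes showed mixed tissue. Well above background in all 8 extracts were 6 of 6 markers of mucociliary epithelium, 3 of 6 of the inner ear, 5 of 6 of keratinocytes and 4 of 6 of hepatocytes. Slc26a5 of outer hair cells, and Alb and Apoa1 of hepatocytes, were so in none. The extracts of an array differed in tissue markers, with median log2 ratios on arrays 1 to 4 of -3.98, -3.94, -0.32 and 0.23 for cerebellum, -2.60, -1.47, -1.06 and 0.37 for neurons, -0.72, -0.54, 0.75 and 0.78 for skeletal muscle and -1.13, -0.03, 0.60 and 0.29 for neutrophils and their precursors. In such bulk extracts, fewer cells of a type and less RNA per cell cannot be told apart. With limma, 0 of 25694 genes (0%) passed an adjusted p of 0.05, 4800 genes (18.7%) had an unadjusted p under 0.05, and 1734 genes (6.75%) had a mean ratio past 2-fold in either direction.

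Ratios are given here as log2 of the signal labelled DEP over the signal labelled control. The signs are opposite to those that the study reports for its changed genes. The study also reports quantitative PCR of selected genes, with changes in the direction of its own array results. Which sign is right was not tested. If the channels were labelled the wrong way round, every sign given here would turn. Of the 8 genes, 7 gave a testable ratio and Cyp1a2 did not. All 7 mean ratios were above 0, where 54.2% of all genes were, although Ahrr was below 0 with normexp and median centring and Arnt with normexp and loess. The 7 include Ahrr and Cyp1a1, which were not well above background in every control extract, so the size of their ratios is uncertain. The median of the 7 was 0.35, which is the value of Ahrr, whose control signal was well above background on 2 arrays only, beside 0.03 over all genes tested. After adjustment over all probes tested, 0 of the 7 passed in limma, each by its brightest probe, and the smallest adjusted p among them was 0.167. By its brightest probe, Cyp1b1 alone had an unadjusted p under 0.05, where 10% of all genes did in this direction and 8.66% in the other. Cyp1a1 alone was past 2-fold, where 2.37% of all genes were higher and 4.37% lower by that much. By brightest probe Cyp1b1 alone was above 0 on all 4 arrays, as were 16.2% of all genes, with 10.9% below 0 on all 4. The second probe of Tiparp was also above 0 on all 4, with an unadjusted p of 0.0466 in limma.

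**Figure D1:**
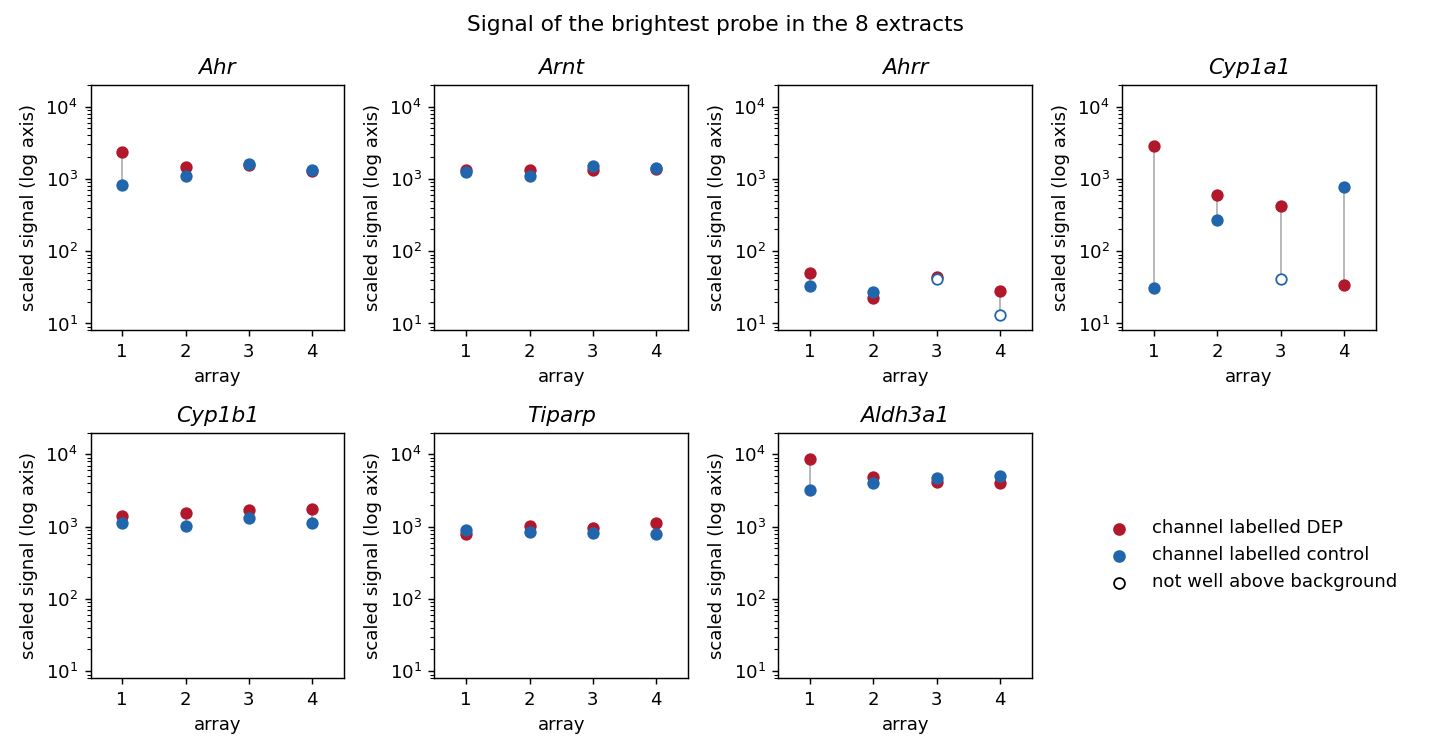
Signals of the brightest probe of each of 7 genes on arrays 1 to 4, scaled to a common median per extract and drawn on a log axis, with red for the channel labelled DEP, blue for control and open circles for spots not well above background. The extracts of an array lie far apart for Cyp1a1, with the order turned on array 4, and close together for Arnt, Cyp1b1 and Tiparp.

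Ahr encodes the receptor itself, and its transcript was measured in all 8 extracts. Its scaled signal, which sets every extract to a common median, was 2342, 1466, 1544 and 1274 in the DEP extracts of arrays 1 to 4 and 837, 1095, 1590 and 1343 in the control extracts. The extract labelled DEP on array 1 was the highest of the 8 and its control partner the lowest, while on arrays 3 and 4 the partners differed by less than 0.1 on the log2 scale. The groups overlapped. The ratios were 1.48, 0.40, -0.05 and -0.08, with a mean of 0.44 ± 0.73 (SD, n = 4) and an adjusted p of 0.464 in limma. Without array 1 the mean was 0.090. The other probe for Ahr, A_65_P06603, did not rise well above background in any of the 8 extracts.

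Arnt, the partner that the receptor shares with the hypoxia factors, gave ratios that differed by probe and by processing. Its brightest probe, A_55_P2100895, gave scaled signals of 1314, 1336, 1320 and 1386 in the DEP extracts and 1243, 1094, 1525 and 1395 in the controls. The control extracts spanned those labelled DEP. The mean ratio was 0.03 ± 0.20 (SD, n = 4; adjusted p = 0.915, limma), and it was -0.051 without array 2. Normexp followed by loess gave -0.0081, and normexp followed by centring on the median gave 0.32 (adjusted p = 0.055). The mean over its probes was 0.19. The second probe, A_55_P2100899, read 0.63, 0.51, 0.28 and -0.02, with a mean of 0.35 ± 0.28 and an adjusted p of 0.293. The probes of Arnt therefore differed by more than the ratio of the brighter one.

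Ahrr, the repressor that competes for Arnt, was close to background. Its probe A_51_P254425 was well above background in all 4 DEP extracts and in 2 of 4 controls. The scaled signals were 50.5, 22.6, 43.4 and 27.7 in the DEP extracts and 33.0, 27.6, 41.7 and 13.2 in the controls, of which those of arrays 3 and 4 were not well above background. The ratios of 0.61, -0.31, 0.05 and 1.07 had a mean of 0.35 ± 0.61 (SD, n = 4; adjusted p = 0.489, limma), which became -0.020 with normexp and median centring and ranged from 0.11 without array 4 to 0.57 without array 2. Its other probe, A_55_P2128388, was not well above background anywhere and gave no ratio.

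Cyp1a1, the P450 enzyme most strongly induced by the receptor in epithelia, differed most between extracts. Its scaled signal was 2899, 607, 428 and 33.7 in the DEP extracts and 31.1, 270, 40.7 and 772 in the controls, and the control of array 3 was not well above background. It was higher in the extract labelled DEP on arrays 1, 2 and 3 and higher in the control on array 4. Signals covered an 86.0-fold range among the DEP extracts and a 24.8-fold range among the controls, and the groups overlapped. The ratios were 6.53, 1.14, 3.39 and -4.52, with a mean of 1.64 ± 4.66 (SD, n = 4; adjusted p = 0.642, limma; p = 0.5, exact sign-flip test, two-sided). This mean was smaller than its SD and rested on single arrays, being 3.69 without array 4 (adjusted p = 0.213) and 0.0035 without array 1.

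The spread of Cyp1a1 was among the largest of all genes. Its SD over arrays was the 6th largest of 24276 genes with 4 ratios, whose median SD was 0.33. On array 1 it ranked 4th from the top of 25510 genes. On array 4 it ranked 6th from the bottom of 25326 genes, and on array 2 608th from the top of 25580. The size of the ratio on array 3, which enters the SD, is uncertain because its control spot was not well above background.

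**Figure D2:**
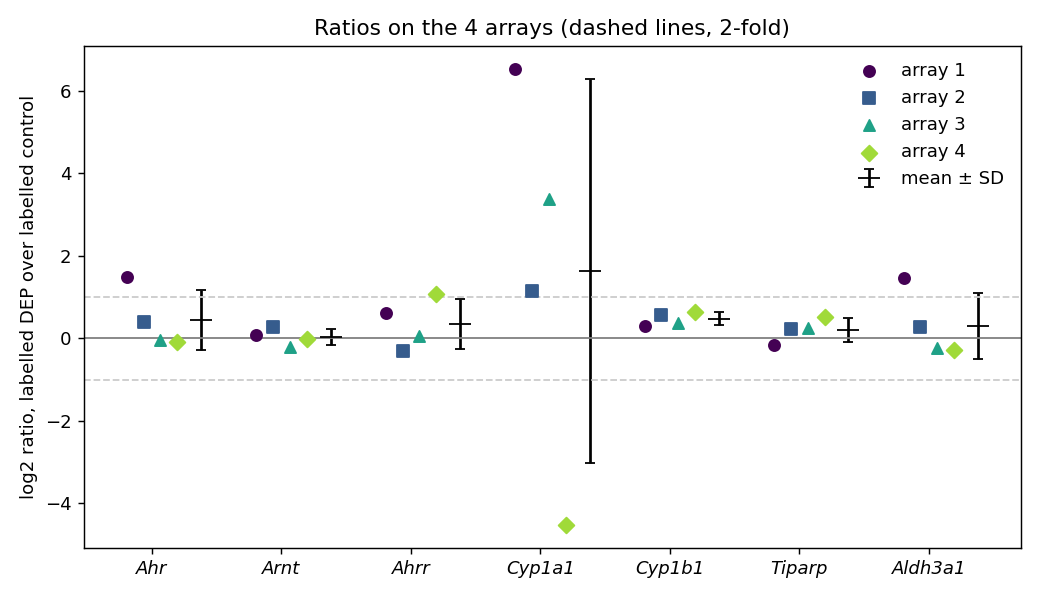
Log2 ratios of the signal labelled DEP over the signal labelled control for the brightest probe of each gene, with 1 symbol per array, the mean ± SD (n = 4) in black and dashed lines at 2-fold. Cyp1a1 runs from -4.52 to 6.53, and Cyp1b1 is above 0 on all 4 arrays.

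**Figure D3:**
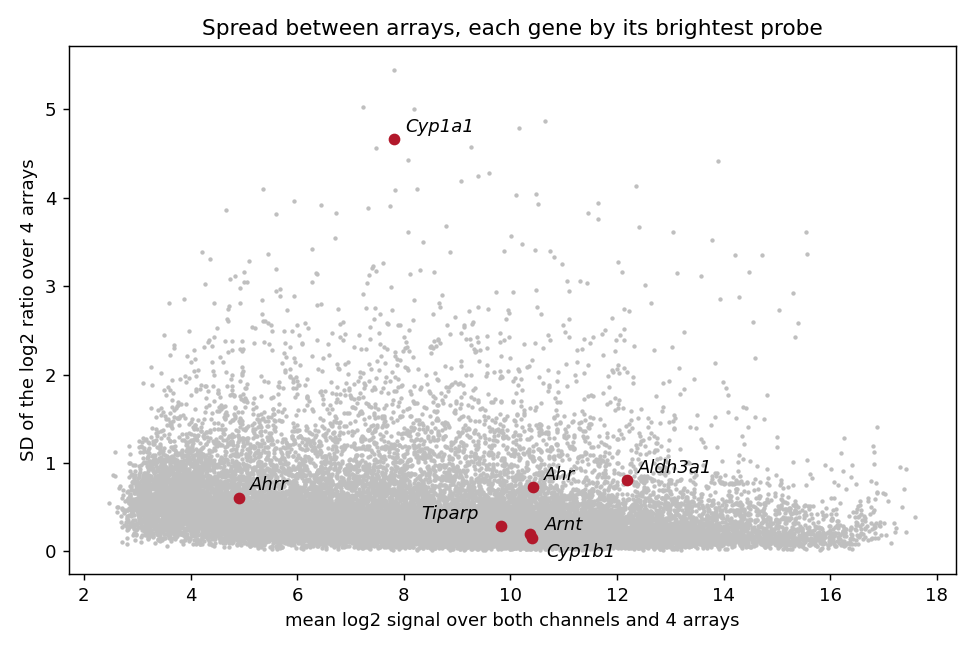
SD of the log2 ratio over 4 arrays against the mean log2 signal over both channels for 24276 genes (grey), with the 7 genes in red. Cyp1a1 lies near the upper edge with an SD of 4.66, and Cyp1b1 and Arnt lie low with 0.16 and 0.20.

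Genes of the sebaceous gland, the lipid-secreting gland of skin and of the ear canal, were read beside Cyp1a1 because its nearest neighbours include one of them. The 3 genes with patterns nearest to it among 18351 genes well above background were Aadacl2fm2, Acot5 and Awat2, at root mean square log2 differences of 0.24, 0.28 and 0.29 over the 8 extracts. Awat2, a wax ester synthase of sebocytes, read 5.79, 1.68, 3.27 and -4.29 on arrays 1 to 4. A list of 13 sebaceous gland genes, chosen after these values were seen and holding Awat2 itself, is therefore no independent comparison. It had 12 members well above background in all extracts, and Far2 was in none. The 12 were higher in the channel labelled DEP on arrays 1, 2 and 3. On array 4, 11 were lower and Mc5r, whose ratios were 0.44, 0.32, 0.54 and 0.33, was not. Their median ratios were 3.91, 0.66, 2.07 and -3.05.

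The summed scaled signal of the 12 ranged from 39002 to 431420 in the DEP extracts and from 43338 to 223733 in the controls. Ordered by this sum, the first 5 extracts came in the same order as by Cyp1a1, which were DEP 1, control 4, DEP 2, DEP 3 and control 2. The other 3 had Cyp1a1 signals of 40.7, 33.7 and 31.1, of which the first was not well above background, so they are not ordered here. The summed signal of 6 keratinocyte markers put the same 5 extracts first, with control 4 and DEP 2 in exchanged places. The cut is narrow, with control 2 the last of them at 63053 and control 3 the next at 61512. The median ratios of these markers were 2.57, 0.31, 0.04 and -0.48 on arrays 1 to 4. The part of either tissue in the Cyp1a1 signal was not tested.

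**Figure D4:**
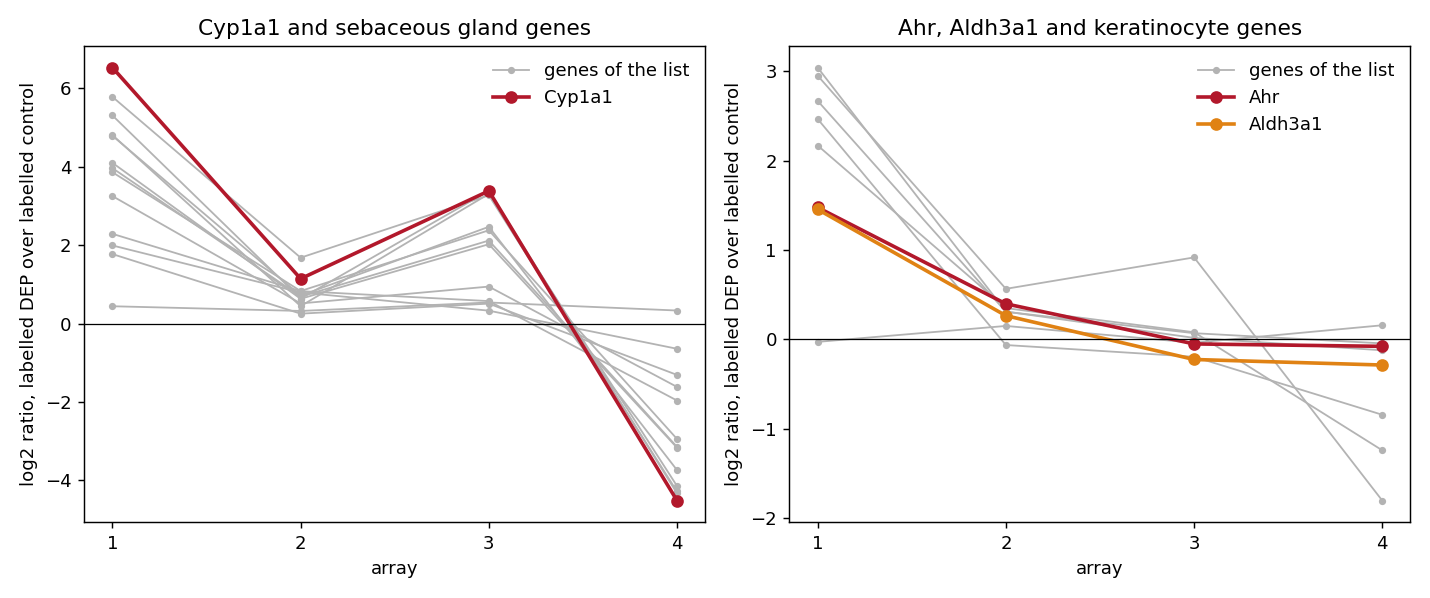
Log2 ratios on arrays 1 to 4 of Cyp1a1 with 12 sebaceous gland genes (left) and of Ahr and Aldh3a1 with 6 keratinocyte genes (right), where each line is 1 gene and points are joined only to show which gene they belong to. Cyp1a1 lies above all 12 genes of the list on array 1 and below them all on array 4, and Ahr and Aldh3a1 are highest on array 1.

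Cyp1a2, which metabolises aromatic amines chiefly in liver, did not rise well above background in any of the 8 extracts, and no ratio was computed. This leaves its level in the middle ear below what these arrays measure, not at 0.

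Cyp1b1, the family 1 enzyme typical of mesenchymal and other extrahepatic cells, was higher in every extract labelled DEP than in every control. Its scaled signals were 1408, 1569, 1711 and 1752 in the DEP extracts and 1131, 1036, 1313 and 1130 in the controls, and the groups did not overlap. The share of all genes whose groups do not overlap was not counted, and 16.2% were above 0 on all 4 arrays. The ratios were 0.31, 0.58, 0.37 and 0.63, a mean of 0.47 ± 0.16 (SD, n = 4) or 1.39-fold. limma gave an SE of 0.11, an unadjusted p of 0.00916 and an adjusted p of 0.167, and the exact sign-flip test gave 0.125, the smallest p that 4 arrays allow. The mean lay between 0.42 and 0.53 with any 1 array left out. With normexp and median centring it was 0.75 with an adjusted p of 0.033, under a setting that called 2785 genes higher (10.8% of all) and 204 lower. Nearest to Cyp1b1 in pattern among 18350 genes were Mitf, Snx18 and Spindoc, at root mean square log2 differences of 0.072, 0.077 and 0.079. Of the set, Tiparp was 0.19 away, Arnt 0.24, Ahr 0.37 and Aldh3a1 0.45. Markers of fibroblasts and mural cells had medians of -0.46, 0.20, -0.22 and 0.52, and their part in the Cyp1b1 ratios was not tested.

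Tiparp, a mono-ADP-ribosyltransferase that the receptor induces and that limits it, showed small ratios. The brightest probe, A_51_P514961, gave scaled signals of 804, 1027, 967 and 1132 in the DEP extracts and 900, 857, 814 and 794 in the controls. The DEP extract of array 1 lay among the controls and the other DEP extracts lay above them. The ratios were -0.17, 0.24, 0.24 and 0.51, with a mean of 0.20 ± 0.28 (SD, n = 4; adjusted p = 0.483, limma). The second probe, A_55_P1985890, was above 0 on all 4 arrays at 0.10, 0.53, 0.24 and 0.41, with a mean of 0.32 ± 0.19, an unadjusted p of 0.0466 and an adjusted p of 0.263. Both probes thus read a positive mean, and neither passed adjustment.

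Aldh3a1, an aldehyde dehydrogenase of epithelia and cornea, was raised most on array 1. Its brightest probe, A_55_P2101216, gave scaled signals of 8778, 4859, 4108 and 4075 in the DEP extracts and 3184, 3979, 4773 and 4968 in the controls. Array 1 held both the highest and the lowest extract, as it did for Ahr. The ratios were 1.46, 0.27, -0.22 and -0.29, with a mean of 0.30 ± 0.81 (SD, n = 4; adjusted p = 0.635, limma), which was -0.082 without array 1. The second probe, A_55_P2065562, read 1.29, 0.22, -0.30 and -0.42.

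The profiles of Ahr and Aldh3a1 over the 8 extracts differed by a root mean square of 0.17 on the log2 scale, which placed Aldh3a1 82nd among 18350 genes by nearness to Ahr. The 3 nearest genes were Tnfrsf4, Ccdc144b and Itpr3, at 0.090, 0.10 and 0.11. On array 1 Tnfrsf4 read 1.44 and Itpr3 1.39, close to the 1.48 of Ahr. Arnt was 0.37 from Ahr and ranked 3924th. Of the 6 keratinocyte markers given beside Cyp1a1, Lor, Krt5, Krt14, Krt10 and Dsg3 had their highest ratio on array 1 and Trp63 did not. Their summed scaled signal was 239640 in the DEP extract of array 1 and ranged from 39560 to 82286 in the other 7 extracts. Markers of mucociliary epithelium had median ratios of 0.78, 0.43, -0.14 and -0.62, but were split on array 1. There Cdh1, Epcam and Scgb1a1 read 1.74, 1.62 and 1.86, while Bpifa1, Foxj1 and Muc5b read -0.06, -0.24 and -1.09. The part of either tissue in the ratios of Ahr and Aldh3a1 was not tested.

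Other genes of the pathway were read from 6 lists of 45 genes, of which 39 were tested. Their mean ratios were above 0 for 20 genes and below 0 for 19, with a median of 0.04. Of all genes tested 54.2% were above 0, with a median of 0.03. In limma 0 of 39 passed adjustment, 3 were higher and 2 lower at an unadjusted p under 0.05, and 2 were higher and 1 lower past 2-fold. In both directions together these are 12.8% and 7.69% of the 39, beside 18.7% and 6.75% of all genes.

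Of the cytosolic complex, which holds the receptor before ligand binding, 1 of 5 genes was above 0 and 4 below, among them Src, which was well above background in 0 of 8 extracts. Ptges3, which encodes the co-chaperone p23, was the lower one at an unadjusted p under 0.05, with -0.27, -0.23, -0.33 and -0.47, a mean of -0.32 and an adjusted p of 0.227. Of the Arnt family and its partners, 1 of 6 was above 0. Npas1 was the gene counted as lower, both past 2-fold and at an unadjusted p under 0.05, but it was well above background in 2 control extracts and in 0 DEP extracts, so no ratio is given for it. Epas1 and Arntl, the 2 brightest of that list, had means of -0.22 and -0.26. All 6 coregulators were below 0 by small amounts, with a median of -0.05, and Smarca4 and Ncoa3 had means of -0.06 and -0.03.

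Other targets of the receptor had a median of 0.19, with 13 of 16 above 0. Cd36, a fatty acid and lipoprotein receptor, was above 0 on all 4 arrays at 0.68, 0.70, 0.29 and 0.09, with a mean of 0.44, an unadjusted p of 0.0351 and an adjusted p of 0.242. Nqo1, the quinone reductase, was at 0.11 with an adjusted p of 0.617. Ugt1a6b, a glucuronosyltransferase, was past 2-fold at a mean of 1.09 with ratios of 3.95, 0.75, 1.53 and -1.86. These turned on array 4 as those of Cyp1a1 did, and so did those of Scin, an actin-severing protein, at 2.47, 0.26, 0.93 and -0.64. The same turn was made by 11 of the 12 sebaceous gland genes given above, so it was not particular to targets of the receptor. Genes of the Ugt1a locus share exons, and the reading of Ugt1a6b is uncertain for that reason. Ereg, an epidermal growth factor ligand, was counted as higher both past 2-fold and at an unadjusted p under 0.05, but it was well above background in 4 DEP extracts and in 1 control extract, so no ratio is given for it.

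Among 5 partner enzymes of P450s, 4 were above 0 with a median of 0.25, and 0 had an unadjusted p under 0.05. Their medians on arrays 1 to 4 were 0.71, 0.20, 0.09 and -0.07. Cyb5a, which donates electrons to P450s, had a mean of 0.41 with an adjusted p of 0.281. Por, the reductase of P450s, had a mean of 0.31 with an adjusted p of 0.366. Of the enzymes that make tryptophan-derived ligands, Il4i1 alone was tested, at a mean of 0.41 with an unadjusted p of 0.0461 and an adjusted p of 0.262. Its ratios were -0.05, 0.53, 0.62 and 0.55, lowest on array 1 where Ahr was highest.

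**Figure D5:**
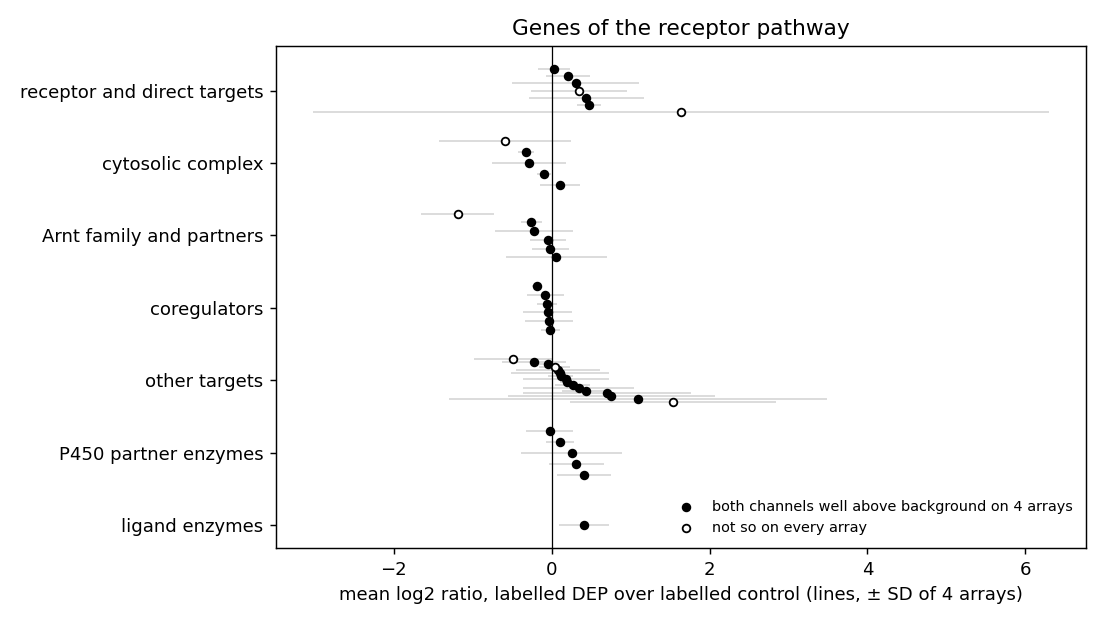
Mean log2 ratios of the 7 tested genes of the set and of 39 further pathway genes by list, with lines of ± SD (n = 4 arrays) and open circles for genes not well above background in both channels on every array. All 7 means of the set lie above 0, those of the 39 lie above 0 for 20 genes and below 0 for 19, and the widest line is that of Cyp1a1.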

How the data were processed

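Each of 4 two-colour arrays held a DEP extract (Cy5) and a control extract (Cy3) of mouse middle ear. The authors quantified spots with Feature Extraction 10.10.1.1, the version in the submitters' processing notes. The deposited processed signals are intensities, background-subtracted and dye-normalized within an array, and the deposited log10 ratio sets Cy5 over Cy3. A deposited table of the authors' log10 ratios differed by at most 0.005 and served as an alternative. The methods name no test.

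Ratios were put on the log2 scale. Control spots, flagged spots (164 to 274 per array) and spots without a ratio (6179 to 8558 of 43020) were left out, saturated spots were kept, and spots of a probe were averaged. Probes with a ratio on at least 3 arrays were fitted with limma 3.58.1 (R 4.3.3; lmFit, eBayes, two-sided; p-values adjusted after Benjamini and Hochberg over all probes), a fit first tested on simulated data. The test of a gene is that of its brightest probe. The RefSeq table of GRCm38.p6 named 27655 of 39429 probes. Intensities were scaled to 1 median per extract for levels and likeness. An exact sign-flip permutation test was used for single genes. Tables were made in Python 3.11.15 with numpy 2.4.6 and pandas 2.3.3, and figures with matplotlib 3.10.9. No value column lacked a sample (0 columns).

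The genes named are the 8 of the set with every probe; in each pathway list, those with an unadjusted p under 0.05 or past 2-fold and well above background in all extracts, otherwise the 2 brightest; and the 3 nearest to Ahr and to Cyp1b1. A gene that this rule names is not reported here. Nqo1, Scin, Ereg, Npas1, Por, Serpinb2 and the neighbours of Cyp1a1 were named after their values were seen. The gene set, the lists and the alternatives were chosen with earlier results of these data known. Those alternatives were normexp (offset 50) followed by loess or median centring, the deposited table, filters on signal over background, flagged spots kept, an intensity trend, ordinary least squares, the mean of a gene's probes, channels unpaired, and each array left out in turn.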

Additional observations from a re-analysis of the deposited data

Results flagged for a closer look

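In 2 pathway genes array 1 lay apart from the other arrays by Dixon's criterion, which sets the gap to the nearest other value over the whole range. Serpinb2, a serpin induced in keratinocytes, had a gap of 0.835, with a log2 ratio of 2.27 on array 1 and from -0.07 to 0.32 on the others. Il4i1 had a gap of 0.858, with -0.05 on array 1 and from 0.53 to 0.62 on the others. Chance flags about 1 in 20 such groups, and these were 2 of 62 tested.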

How the results depend on the processing

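In this section loess and median centring each stand for a setting that also includes normexp. The number of genes past 2-fold was 1734, and 449 after normexp plus loess, 605 after normexp plus median centring, 579 with both channels well above background and 810 with 1 channel so. It was 1552 to 2720 with 1 array left out, the highest without array 4. The higher ones numbered 610, then 79, 385, 129 and 297, and 590 to 1097. Of genes past 2-fold 35.2% were higher, but 17.6% under loess and 63.6% under median centring (all-gene median 0.12 in place of 0.03), and 22.3% with both channels above background. Adjusted calls rose from 0 to 2989 with median centring and to 172 in the unpaired fit, which drops the pairing of channels by array (no replicate block), and stayed at 0 with any array left out. Unadjusted calls went from 4800 to 9538 with median centring, 2841 with both channels above background and 2936 to 5006 with 1 array left out, the lowest without array 2.

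Where 7 genes were tested, 6 or 7 had a mean above 0 under the alternatives, and with both channels above background 5 were tested and all 5 were above 0. With median centring 4 had an unadjusted p under 0.05 (Ahr, Arnt, Cyp1b1 and Tiparp) and 1 passed adjustment, Cyp1b1 at 0.75 (adjusted p = 0.033; range over alternatives 0.033 to 0.442). Leaving out an array gave 1 to 2 at an unadjusted p under 0.05, the second being Cyp1a1 without array 4, and 0 to 1 past 2-fold, with 0 without array 1. It was also 0 with both channels above background, where Cyp1a1 is not tested. Arnt turned to -0.0081 with loess and ranged from -0.051 (without array 2) to 0.11 with 1 array left out, Ahrr turned to -0.020 with median centring, and Aldh3a1 ranged from -0.082 (without array 1) to 0.50 with 1 array left out. With 1 array left out, Cyp1a1 ranged from 0.0035 to 3.69, Ahrr from 0.11 to 0.57, Ahr from 0.090 to 0.61, Tiparp from 0.10 to 0.33 and Cyp1b1 from 0.42 to 0.53. With median centring Ahr was 0.72, Tiparp 0.51, Aldh3a1 0.71 and Arnt 0.32. Pathway genes at an unadjusted p under 0.05 went from 5 to 8 with loess, 16 with median centring and 1 to 6 with 1 array left out, the lowest without array 2. Those past 2-fold went from 3 to 1 with loess, 1 with both channels above background and 1 to 4 with 1 array left out, the lowest without array 1. Adjusted calls among them went from 0 to 9 with median centring and 1 in the unpaired fit. The cause of these shifts was not tested. Low signal left Cyp1a2 unmeasured.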
